A study of Mus musculus with 6 samples.

Results

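The wild-type baseline of CD48-negative LSK cells is described here from the 3 arrays of wild-type mouse bone marrow, of 6 arrays in the series. LSK stands for lineage-negative, Sca-1-positive and c-Kit-positive. The cells were sorted on those markers and on the absence of CD48, which the labels describe as stem and progenitor cells of wildtype genotype and strain C57BL/6. The other 3 arrays hold the same gate from animals without Spred1, and they enter below only as a measure of spread between arrays. The labels give no age and do not say whether the samples came from separate animals or how many animals were pooled, so the spread between the 3 samples may be technical in part. Levels were read with 1 colour (Cy3) after sorting into Trizol and labelling with a kit made for little RNA. A probe, an oligonucleotide of 60 bases on the array, was a member where the scanner software called its spot well above background ("called" below) on all 3 wild-type arrays. This held for 27027 of 55681 probes (48.5%), and these covered 19212 of 34757 gene names (55.3%).

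The LSK gate collects the haematopoietic stem cells of the marrow together with early multipotent progenitors. CD48 marks most of the more committed progenitors, so its absence enriches for stem cells. Stem cells of this kind rest for long periods outside the cell cycle, depend on c-Kit signalling, and give rise to all blood lineages. Progenitors further along the myeloid path make the enzymes of the primary granules first, and the proteins of secondary and tertiary granules later.

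A level below is the log2 processed signal of a probe minus the 75th percentile of its array, so 0 is a signal equal to that percentile and 1 is 2-fold above it. The brightness of a probe depends on its sequence as well as on its transcript, and levels are therefore compared between arrays and not taken as transcript amounts. Where a gene had several member probes, the brightest was used. Among the 19212 genes the median level was 0.57, the 5th percentile was -3.35 and the 95th was 5.74. The scanner calls left a small overlap at the edge. On WT replicate 1 the dimmest spot called well above background lay at -4.41 and the brightest spot not so called at -3.87. On WT replicate 2 they lay at -4.25 and -3.70, and on WT replicate 3 at -4.41 and -3.90.

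The 3 arrays were alike in depth of detection. Between 52.3% and 52.6% of spots were well above background, no spot was saturated, and the 75th percentile of the signal was 417, 404 and 369 on WT replicates 1, 2 and 3. WT replicates 1 and 2 lay on 1 slide, and WT replicate 3 on another that was scanned at a separate time, so among wild-type arrays replicate 3 and its slide cannot be told apart. Beyond the members, 1556 probes were called on 2 arrays, 2244 on 1 and 24844 on 0. WT replicate 1 stood apart from the other 2 in granule, monocyte and globin genes, and counts in those groups are given with and without it.

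The markers that define the gate were measured on all 3 arrays. Kit, the stem cell factor receptor (chr5:76052394-76052453, mm9), had levels of 5.32, 5.10 and 4.89 on WT replicates 1, 2 and 3. Ly6a, which encodes Sca-1 (chr15:74825553-74825612), had levels of 4.22, 4.36 and 4.76. Kit was thus highest on WT replicate 1 and Ly6a highest on WT replicate 3, and the ranges of both stayed under 2-fold. Procr, the endothelial protein C receptor of stem cells (chr2:155580945-155581004), had levels of 4.87, 4.81 and 4.71. Hlf, a transcription factor typical of stem cells (chr11:90200696-90200755), had levels of 5.87, 5.69 and 5.77. Procr and Hlf varied less than Kit and Ly6a, with an SD of 0.077 and 0.091 against 0.21 and 0.28 (n = 3). Mecom, a transcription factor needed for stem cell maintenance, had 3 probes that disagreed. The brightest (chr3:30135491-30135550) read 0.01, 0.13 and 0.13, another read -0.83, -1.42 and -0.90, and the last was called on 0 arrays.

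The antigens that the gate excludes gave a mixed picture. Cd8a, a T cell antigen, and Il7r, the interleukin 7 receptor of lymphoid progenitors, were called on 0 of the 3 arrays. Cd48 was a member on both of its probes. The brighter (chr1:173635201-173635260) read -0.67, 0.01 and 0.09 on WT replicates 1, 2 and 3, and the other read -2.21, -1.51 and -1.57. Both Cd48 probes were lowest on WT replicate 1. Ptprc, the CD45 gene that all white blood cells express and whose B220 form is a lineage antigen, read 2.39, 2.12 and 2.02. Cd3e read 0.35, 0.66 and 0.67, and Ly6g, an antigen of neutrophils, read -0.16, 0.24 and 0.43. Of these, Cd3e and Ly6g were lowest on WT replicate 1 and Ptprc was highest there.

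Probes of 1 gene disagreed for 3 of these antigens. Itgam, which encodes CD11b of myeloid cells, had a probe at 5.11, 5.09 and 5.04, a further one at -1.69, -1.37 and -1.93, and the last at -3.81, -3.48 and -3.21. Cd4 had a member probe at 1.32, 1.31 and 1.25 and another that was well above background on 2 arrays only. Klrb1c, the NK1.1 gene, had a member probe at -1.80, -1.80 and -2.28 and another that was called on 0 arrays. For both Itgam and Cd4 the brightest probe had a range of 0.07 log2 units over the 3 arrays.

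**Figure D1:**
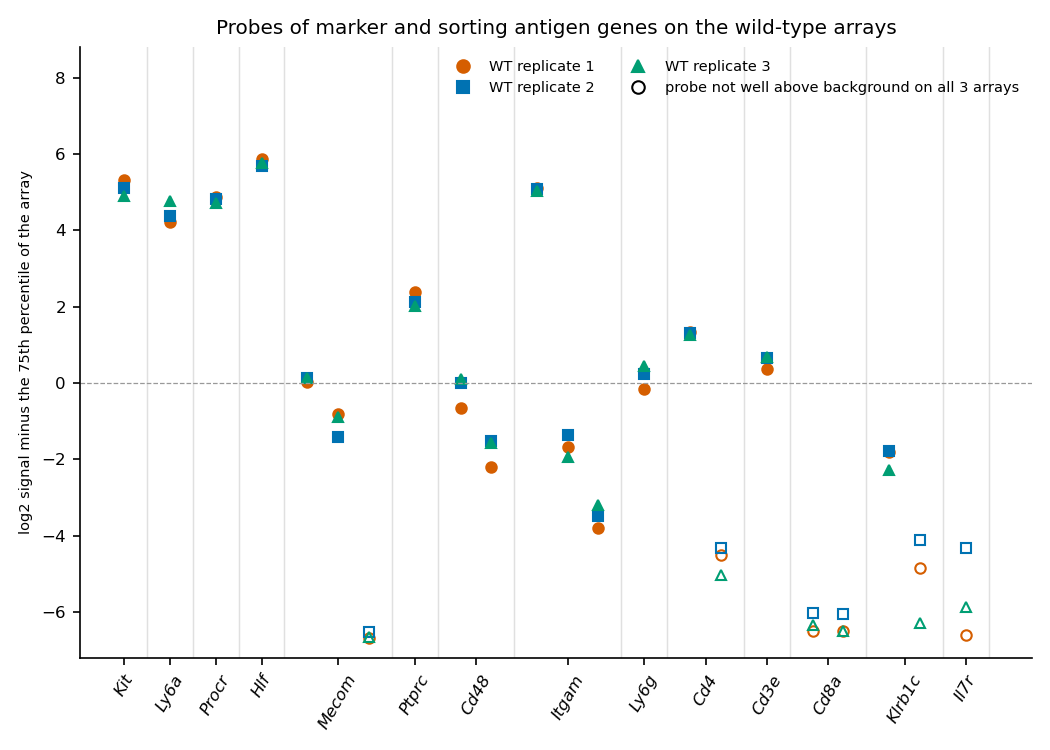
Level of every probe of the gate antigens and given markers that are reported here on the 3 wild-type arrays (log2 signal minus the 75th percentile of the array, 1 column of points per probe). Kit, Ly6a, Procr and Hlf sit above 4, Cd8a and Il7r have only open symbols (not well above background on all 3 arrays), and the 3 Itgam probes are far apart.

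The brightest genes with a symbol were Rn4.5s and Rn18s, which are noncoding RNAs of 4.5S and 18S size, with mean levels of 9.69 and 9.66. Kctd14, Slc10a1, Glrx2, Rps14, Pirb, Exosc2 and COX1 were also among the 10 brightest. Rps14 encodes a ribosomal protein and COX1 a mitochondrial subunit of cytochrome c oxidase. Slc10a1 encodes a bile acid transporter of liver cells, and its probe read 9.52, 9.63 and 9.71 on WT replicates 1, 2 and 3. Its other probe had a mean level of -6.40. The deposited probe sequences of these genes were therefore read, and 5 of the 10 were found to hold stretches of B1 or B2 repeats, families of short interspersed elements present in many copies in mouse transcripts.

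The windows below are 30 bases of probe sequence, printed 5′ to 3′ as deposited, and are shown because 5 of the 10 brightest genes have a probe with such a stretch. Capitals mark the stretch that was searched.
Kctd14: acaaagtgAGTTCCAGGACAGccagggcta
Glrx2: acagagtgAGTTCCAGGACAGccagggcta
Elk1: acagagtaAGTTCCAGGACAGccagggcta
Ttc38: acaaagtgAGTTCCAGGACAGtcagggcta
Slc10a1: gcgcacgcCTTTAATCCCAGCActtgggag
Exosc2: ccacatggTGGCTCACAACCATccgttacg
Pirb: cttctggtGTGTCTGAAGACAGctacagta
The first 5 hold a B1 stretch and the last 2 a B2 stretch. Elk1 and Ttc38 were added to the 5 as further holders of the same B1 stretch. The probes lie at chr7:104606896-104606955 (Kctd14), chr1:145596708-145596767 (Glrx2), chrX:20510521-20510580 (Elk1, minus strand), chr15:85688096-85688155 (Ttc38), chr12:82056539-82056598 (Slc10a1, minus strand), chr2:31536706-31536765 (Exosc2) and chr7:3663046-3663105 (Pirb, minus strand) on mm9, as the scanner files give them.

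The 4 stretches searched were AGTTCCAGGACAG and CTTTAATCCCAGCA of B1 and TGGCTCACAACCAT and GTGTCTGAAGACAG of B2, in the probe's own direction and as the reverse complement. They were chosen after the brightest probes had been read, so the counts describe these probes and support nothing further. In the forward direction 29 probes held 1 of them, 0.0521% of all probes, and 28 of the 29 were members. Their median level was 8.44, with a range from -4.02 to 9.63, while the median over all member probes was -0.03. The reverse complement was held by 10 probes, of which 8 were members, and their median level was -0.50, with a range from -6.26 to 3.16. No probe held both directions. Among the 50 brightest probes 9 held a forward stretch, 0 held a reverse one and 22 were annotated to ribosomal proteins.

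Other probes of the same genes were far dimmer. Elk1, a transcription factor downstream of ERK, read 9.29 (mean) on the probe with the B1 stretch and -3.87 on its other probe. The other probes of Kctd14 lay between -3.48 and 0.72, those of Glrx2 between -2.50 and 0.29, those of Ttc38 between -2.08 and 0.59, and those of Pirb between -5.63 and 1.15. Of the gene lists used below, the forward stretches touched 1 gene, Csf3r, the receptor for granulocyte colony-stimulating factor. Its single probe read 7.38, 7.58 and 7.57, and its level is not read here as that of Csf3r alone.

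**Figure D2:**
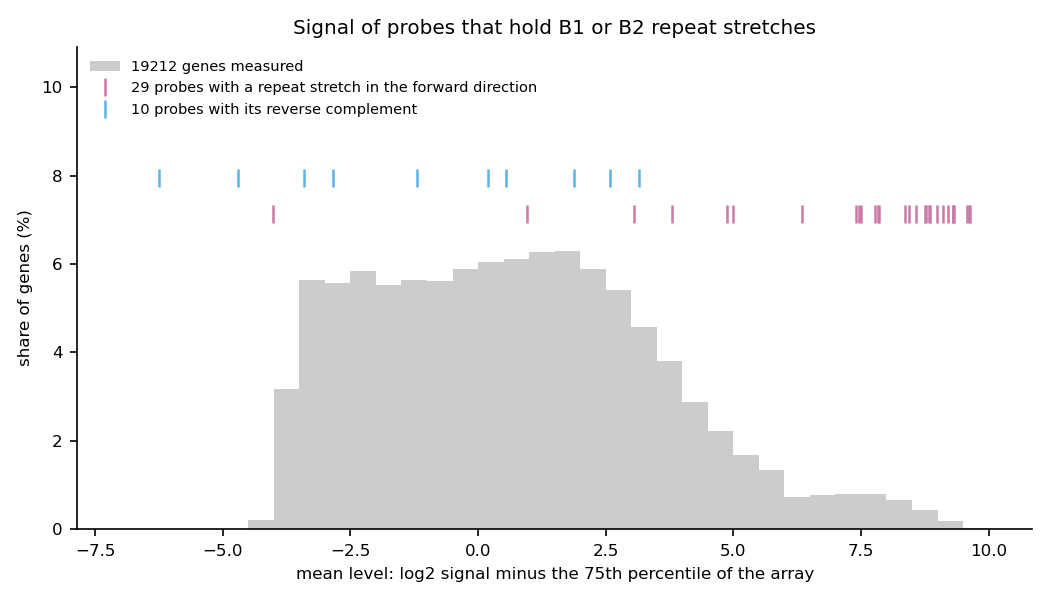
Share of the 19212 genes by mean level (grey bars, log2 signal minus the 75th percentile of the array, mean of 3 arrays), with ticks for single probes that hold a B1 or B2 stretch. Most of the 29 forward probes lie at the bright end, with a median of 8.44, and the 10 reverse probes lie between -6.26 and 3.16.

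The spread between the 3 arrays was small for most genes. The median SD was 0.13 log2 units, the 95th percentile was 0.43. The median gene differed by 1.19-fold between its highest and lowest array. Pearson correlations across genes, which are not independent replicates, were 0.993, 0.993 and 0.995 for the pairs 1 with 2, 1 with 3 and 2 with 3. Spread depended on signal. With the genes split by mean level into 10 classes of like size, the median SD was 0.25 in the dimmest class and 0.096 in the brightest, and 140 against 10 genes of these classes had a range of at least 2-fold. For 241 probes printed in at least 8 member spots, the median SD between single spots of 1 array was 0.065, and the median SD between arrays of 1 spot of each of these probes was 0.13.

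The steadiest bright genes had nearly the same level on every array. Among genes at or above a level of 2.62, Marchf1, Ptms, Ppp1r3b, Cln3, Cops7a, Eif2s1, Adam10, Oser1, Eif1-ps and Zfp947 had the smallest SD, between 0.003 and 0.009. Marchf1, a ubiquitin ligase of antigen-presenting cells, read 3.95 on all 3 arrays. Adam10, a membrane protease that cleaves Notch receptors, read 3.70, 3.71 and 3.72. The ranking was made among the 12624 member genes with a gene symbol, so the SDs of these 10 are small by selection, and the 3 arrays without Spred1 gave Marchf1 a range of 0.34 log2 units and Adam10 a range of 0.11.

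**Figure D3:**
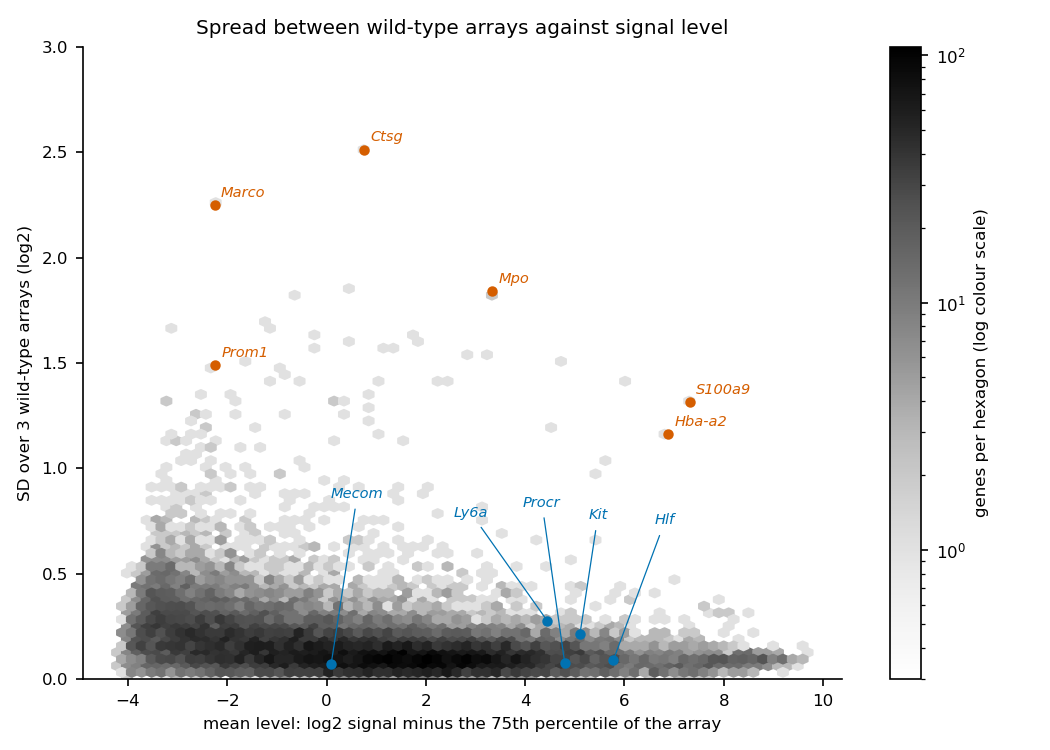
SD over the 3 wild-type arrays against mean level for 19212 genes, as hexagons shaded by the number of genes on a log colour scale. Ctsg, Marco, Mpo, Prom1, S100a9 and Hba-a2 (orange) lie far above the bulk, and Kit, Ly6a, Procr, Hlf and Mecom (blue) lie lower. The SDs of Kit and Ly6a are 0.21 and 0.28, above the median of 0.096 in the brightest of 10 signal classes, which holds both.

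A range of at least 2-fold was found in 491 genes, 2.56% of the 19212. WT replicate 1 was the lowest array in 238 of them and the highest in 118. WT replicate 2 was lowest in 67 and highest in 258, and WT replicate 3 was lowest in 186 and highest in 115. Over all genes, WT replicate 1 was lowest in 36.8%, WT replicate 2 in 35% and WT replicate 3 in 28.2%, and they were highest in 32.2%, 27.2% and 40.6%. Without WT replicate 1, 200 of the 19212 genes (1.04%) differed by at least 2-fold between the 2 others. The 3 arrays without Spred1 had a range of at least 2-fold in 560 genes (2.91%), with no call required on those arrays. The sets shared 97 genes, 19.8% of the 491 and 17.3% of the 560.

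Genes of neutrophil granules were among those with the largest ranges, and they were lower on WT replicate 1. Fewer granule-bearing cells and less of these RNAs per cell cannot be told apart in such bulk samples. Ctsg, the protease cathepsin G of primary granules (chr14:56718795-56718854), read -2.15 on WT replicate 1 and 2.23 and 2.18 on WT replicates 2 and 3, a 20.8-fold range. This is 4.38 log2 units, and it was 3.67 after normexp background correction. That method estimates the background of each array anew and adds an offset of 50 to the signal. The offset by itself narrows the ranges of dim probes. Mpo, myeloperoxidase, read 1.21, 4.48 and 4.30, a 9.68-fold range. Both genes had 2 arrays close together and WT replicate 1 far below them. On the 3 arrays without Spred1, Ctsg had a range of 0.66 log2 units and Mpo of 0.73. Both genes were named for the size of their wild-type ranges, so those are large by selection.

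The list of primary granule genes also holds myeloid progenitor genes not confined to primary granules, such as Cebpe, Hp, Fcnb and Calr. All 16 genes of the list were members, and 9 had a range of at least 2-fold, against 2.56% of all genes. Cebpe, Hp and Fcnb were among the 9, with ranges of 2.27, 2.87 and 1.95 log2 units. WT replicate 1 was lowest in 13 of the 16, against 36.8% of all genes. The median deviation of the list from the mean of 3 arrays was -0.65 on WT replicate 1, 0.53 on WT replicate 2 and 0.38 on WT replicate 3. Elane, neutrophil elastase, followed with 0.51, 1.82 and 1.72, whereas Srgn, the granule proteoglycan serglycin, read 6.63, 6.58 and 6.64 and Nkg7 read 2.91, 3.12 and 3.02. Srgn and Nkg7 thus had no lower level on WT replicate 1 beyond 0.21 log2 units. Without WT replicate 1, 1 gene of the list differed by at least 2-fold. This was Cebpa, also among the 9, at -0.58, -0.81 and -1.91. Cebpa went the other way, with its highest level on WT replicate 1 and its lowest on WT replicate 3.

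Later granule genes differed more. Of 22 on the array 20 were members. Of these, 15 had a range of at least 2-fold (2.56% of all genes), and WT replicate 1 was lowest in 19 (36.8% of all genes). The median deviations were -1.55, 0.85 and 0.70. Chil3, a chitinase-like lectin of neutrophils (chr3, start 105950485), read 1.27, 4.26 and 4.56, and Ifitm6 read -0.65, 2.14 and 1.93. S100a9, a subunit of the calcium-binding protein calprotectin, read 5.80, 8.12 and 8.04. All 3 genes had a low WT replicate 1. Lyz2, lysozyme, read 1.85, 2.07 and 1.94, and Stfa2 read -1.21, -0.92 and -1.29 with its lowest value on WT replicate 3. Without WT replicate 1 the count was 0, and it was also 0 over the 3 arrays without Spred1.

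Monocyte and macrophage genes were also lowest on WT replicate 1 in most cases. Of 20 genes 17 were members, 9 had a range of at least 2-fold (2.56% of all genes) and 16 were lowest on WT replicate 1 (36.8% of all genes). The median deviations were -0.53, 0.27 and 0.43, with WT replicate 3 and not WT replicate 2 highest in 12 of the 17. F13a1, the coagulation factor XIII subunit of monocytes, read -3.18, -0.40 and -0.14, a range of 3.05 log2 units that was 2.04 after normexp background correction. Ly86, a partner of a Toll-like receptor relative, read -3.40, -0.88 and -0.66. Cd68, a lysosomal protein of macrophages, differed less with 0.95, 1.39 and 1.43. Ccr2, Cx3cr1 and Cybb were each well above background on 2 arrays only. Without WT replicate 1 no gene of the list differed by at least 2-fold.

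Globin genes were likewise lowest on WT replicate 1. Hba-a1 read 3.22, 5.37 and 5.18, and Hba-a2 read 5.54, 7.60 and 7.50. The 2 alpha-globin copies are near identical, so their probes may read each other's transcript. Of 19 erythroid genes 14 were members, 7 had a range of at least 2-fold (2.56% of all genes) and 10 were lowest on WT replicate 1 (36.8% of all genes), with median deviations of -0.54, 0.34 and 0.24. Ermap, an adhesion protein of red cells, read 1.71, 1.72 and 1.72, and Car1, carbonic anhydrase, read -1.72, -1.74 and -1.59. Klf1, Rhag and Epb42, genes of red cell precursors, were called on 0 arrays. Without WT replicate 1 the count of 7 became 0. The part of monocytes, neutrophils and red cell precursors in the low values of WT replicate 1 was not tested.

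Besides Ctsg, Mpo, Chil3 and F13a1, the 10 genes with the largest range among the 12624 member genes with a gene symbol held 6 others. Rnase2a read -1.65, 1.70 and 1.34, Ear12 read -2.76, 0.57 and 0.19, and Ear1 read -2.09, 0.95 and 0.52. These are eosinophil-associated ribonucleases of 1 gene family, and their probes may share transcripts. Vpreb3, a gene of early B cells, read -2.96, 0.16 and -0.42, and Prom1, which encodes CD133, read -3.79, -0.82 and -2.13. After normexp background correction the range was 2.76 log2 units in place of 3.35 for Rnase2a, 2.43 in place of 3.32 for Ear12, 2.41 in place of 3.03 for Ear1, 2.14 in place of 3.12 for Vpreb3 and 1.73 in place of 2.97 for Prom1. Marco, a scavenger receptor of macrophages (chr1, start 122371115), was the exception. It read 0.33 on WT replicate 1 and -3.36 and -3.73 on the others, a 16.8-fold range in the opposite direction. The values on WT replicates 2 and 3 lay near the dim edge, and after normexp background correction the range was 2.40 log2 units in place of 4.07. Its range over the 3 arrays without Spred1 was 0.14. All 10 genes were taken for their wild-type ranges, which are thus large by selection.

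**Figure D4:**
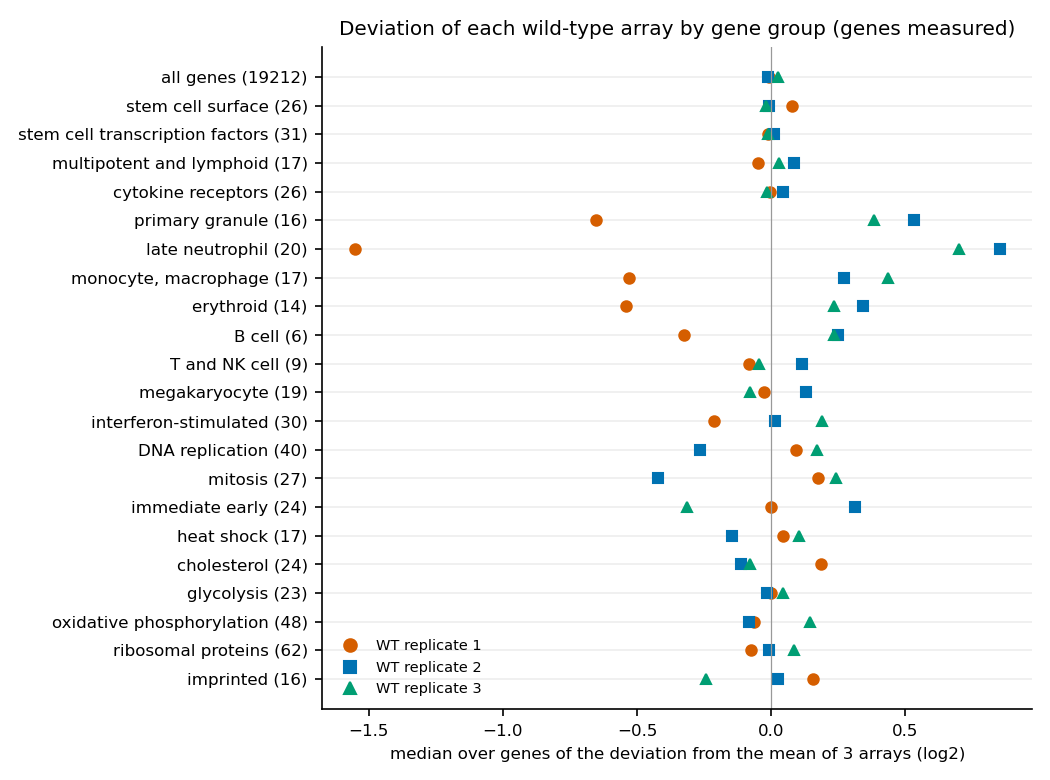
Median deviation of each wild-type array from the mean of the 3 arrays (log2) over the measured genes of each group, with the number of genes in brackets. WT replicate 1 is at -1.55 for late neutrophil genes and -0.65 for primary granule genes, WT replicate 2 is at -0.42 for mitosis genes, and stem cell transcription factors lie near 0 on all 3 arrays.

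Genes of the stem cell state had a median SD near that of all genes, though they were brighter, and spread fell with signal. All 31 listed transcription factors were members, and 0 had a range of at least 2-fold, against 2.56% of all genes. Their median SD was 0.12, against 0.13. The median level of the list was 2.47, against 0.57 over all genes. In the signal class that holds this level, the 8th of 10, the median SD was 0.10. In that class 9 of 1921 genes had a range of at least 2-fold. Tal1, a master regulator of blood formation, read 4.03, 4.06 and 4.06, and Tcf15, a factor of quiescent stem cells, read 1.40, 1.37 and 1.37. The widest were Klf4 with 2.32, 3.0 and 2.09 and Mycn with 4.09, 3.59 and 3.30. Klf4 was highest on WT replicate 2 and Mycn on WT replicate 1. The median deviations of the list were -0.01, 0.01 and -0.01.

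Surface genes of stem cells were members in 26 of 27 cases, with a median SD of 0.13, the value of all genes. The median level of the list was 2.98, also in the 8th signal class. In that class the median SD was 0.10, and 9 of 1921 genes had a range of at least 2-fold. Cd34, a sialomucin of progenitors, read 6.68, 6.61 and 6.62, and Ifitm1 read 7.16, 7.15 and 7.20. Cdh5, the endothelial cadherin, was called on 0 arrays. The list held 2 genes with a range of at least 2-fold, 7.69% of the 26 against 2.56% of all genes. Cavin2, a coat protein of caveolae, read 1.75, 1.51 and 0.32, and Itgb3, integrin beta 3, read 1.89, 2.06 and 2.99. In both genes WT replicate 3, the only wild-type array of the second slide, lay apart.

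Multipotent and lymphoid genes were members in 17 of 20 cases, and 1 had a range of at least 2-fold (2.56% of all genes). Dntt, the terminal transferase of lymphoid progenitors, read 1.27, 1.58 and 0.37, and Wfdc17 read 2.42, 3.27 and 2.69. Ikzf1, the lymphoid regulator Ikaros, read 2.71, 2.81 and 2.75, and Cd86 read 0.09, 0.19 and 0.18. Rag1 and Rag2 were called on 0 arrays. Among 28 cytokine receptor genes 26 were members, and 1 had a range of at least 2-fold (2.56% of all genes). This was Csf1r, the receptor of macrophage colony-stimulating factor, at 0.31, 1.19 and 1.47. Csf1r was low on WT replicate 1, and without that array the count was 0. Tek, the angiopoietin receptor, read -0.94, -1.38 and -1.73, while Ifnar1 and Ifnar2, the 2 chains of the interferon alpha receptor, read 2.0, 2.06 and 2.01 and 2.58, 2.63 and 2.59.

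The T and NK cell and B cell lists had a share of members close to the 55.3% of all gene names. Of 18 T and NK cell genes 9 were members and 0 had a range of at least 2-fold (2.56% of all genes). The median level of the 9 was -0.70. The brightest were Nkg7 at 2.91, 3.12 and 3.02 and Lck at 2.44, 2.65 and 2.47. Ms4a4b read -2.29, -1.31 and -1.81 and Cd5 read -2.38, -1.98 and -2.61. Cd3g, Cd8a, Cd8b1, Gzma, Gzmb and Ncr1 were called on 0 arrays. Of 13 B cell genes 6 were members, and 3 of these had a range of at least 2-fold (2.56% of all genes). Of the 6, 5 were lowest on WT replicate 1 (36.8% of all genes), with a median deviation of -0.33 there. Vpreb3 had the largest range, as given above, and Cd79a, a part of the B cell receptor complex, read -3.86, -2.75 and -2.64. Cd79b at 3.02, 3.06 and 3.18 was steadier, and Blnk at 0.82, 1.55 and 0.06 was the member lowest on WT replicate 3. Without WT replicate 1, 1 B cell gene differed by at least 2-fold, and Pax5, Ebf1, Igll1 and Blk were called on 0 arrays. Of 13 mast cell and basophil genes 4 were members, with Gata2, a stem cell factor as well, at 4.0, 4.10 and 4.11 and Hdc, histidine decarboxylase, at -1.45, 0.99 and 0.69. Hdc was again lowest on WT replicate 1. Of the 4 members 2 had a range of at least 2-fold (2.56% of all genes), and 1 without WT replicate 1.

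Of 21 megakaryocyte genes 19 were members (90.5%, against 55.3% of all gene names). Pdzk1ip1 read 5.74, 5.81 and 5.76, and Rab27b read 0.32, 0.33 and 0.46. Selp, the P-selectin gene, read -0.84, 0.26 and -0.40. It was 1 of 3 with a range of at least 2-fold (2.56% of all genes), a count that was 1 without WT replicate 1. Of 16 dendritic cell genes 10 were members (62.5%, against 55.3% of all gene names). Among these, 0 had such a range (2.56% of all genes). Siglech, a lectin of plasmacytoid dendritic cells, read 7.11, 7.25 and 7.32, and Cd74, the invariant chain, read 3.60, 2.97 and 3.56. Clec9a, Xcr1 and Batf3 were called on 0 arrays. Of 19 stromal and endothelial genes 10 were members (52.6%, against 55.3% of all gene names). A range of at least 2-fold was found in 2 of the 10 (2.56% of all genes). These were Vcam1 at -0.94, 0.27 and 0.71 and Cxcl12 at -2.12, -2.81 and -1.71. Sparc read -0.60, -0.55 and -0.55. The brightest members were Kdr at 2.93, 3.11 and 3.25 and Lepr at 2.29, 2.58 and 2.74, whereas Col3a1, Kitl and Pdgfra were not called.

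Cell cycle genes set WT replicate 2 apart. All 40 DNA replication genes were members, and all 40 were lowest on WT replicate 2, against 35% of all genes. The differences were small. The median deviations were 0.09, -0.26 and 0.17 on WT replicates 1, 2 and 3. A 2-fold range was reached by 0 of the 40 (2.56% of all genes). Pola2, a subunit of the primase complex, read -2.03, -2.99 and -2.08, and Tk1, thymidine kinase, read 1.98, 1.28 and 2.21. Rfc2, a clamp loader subunit, read 3.45, 3.44 and 3.48, and Pole, a replicative polymerase, read 3.28, 3.19 and 3.28.

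Mitosis genes gave the same order with larger deviations, 0.17, -0.42 and 0.24. Of 30 genes 27 were members, and 26 were lowest on WT replicate 2 (35% of all genes). A single member, 1 of the 27, had a range of at least 2-fold (2.56% of all genes). That was Ckap2l, a spindle protein, at -1.44, -2.88 and -2.16. Bub1, a checkpoint kinase, read -0.73, -1.41 and -0.44, and Kif23, a midzone kinesin, read 0.72, 0.67 and 0.58. Kif23 was the gene lowest on WT replicate 3 instead. Kif15, a spindle kinesin outside the list, was among the 5 genes farthest below the others on WT replicate 2, at -2.39, -3.99 and -2.83. Aurkb and Cenpf were called on 0 arrays.

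Inhibitors of the cycle did not split the arrays in this way. Of 24 genes 22 were members, and 0 had a range of at least 2-fold (2.56% of all genes). The median level of the list was 1.89, and 15 of 1921 genes in the signal class that holds it had such a range. WT replicates 1, 2 and 3 were lowest in 8, 5 and 9. Cdkn1b, the p27 inhibitor, read 3.16, 3.13 and 3.16, and Tob1 read 0.94, 0.99 and 0.99. The widest were Gas6 at 2.71, 2.73 and 1.77 and Txnip at 5.41, 5.10 and 4.56. Cdkn2a and Cdkn2b, the p16 and p15 genes, were called on 0 arrays. Of 17 G1 cyclin genes 16 were members and 10 were lowest on WT replicate 2 (35% of all genes), with E2f1 at 1.34, 0.89 and 1.72 and Cdk6 at -1.09, -1.24 and -1.20.

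Immediate early genes, which cells switch on within minutes of a stimulus, ran highest on WT replicate 2 and lowest on WT replicate 3. Of 25 genes 24 were members, 20 were highest on WT replicate 2 against 27.2% of all genes, and 22 were lowest on WT replicate 3 against 28.2%. Ccn1 read -3.25, -2.28 and -3.96, and Atf3, a stress-induced factor, read 0.61, 1.41 and 0.13. Fosb read 5.66, 5.86 and 4.65, and Klf2 read 4.72, 5.56 and 4.5. These 4 were the members with a range of at least 2-fold (2.56% of all genes). Dusp2, a MAP kinase phosphatase, read 6.69, 6.74 and 6.60 and Nfkbia, an inhibitor of NF-kappaB, read 4.51, 4.60 and 4.40. Over the 3 arrays without Spred1, 11 of the 24 had a range of at least 2-fold, against 2.91% of all genes, so the list varied there too.

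**Figure D5:**
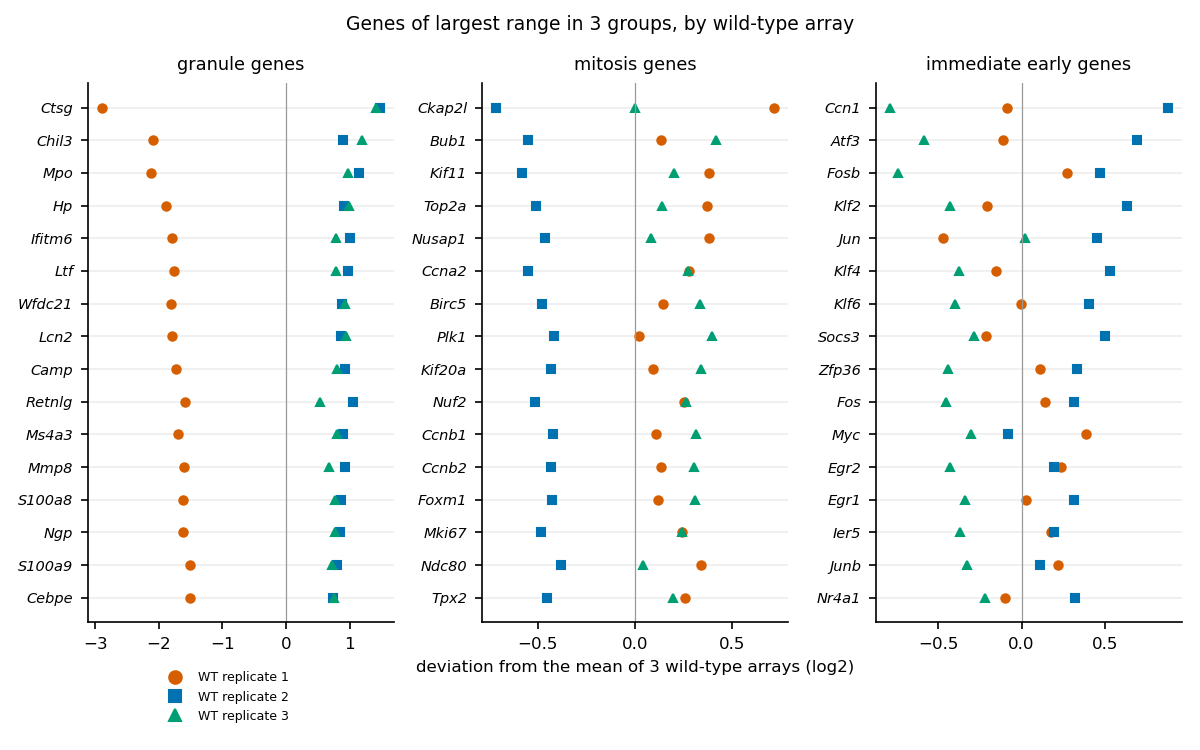
Deviation of each wild-type array from the mean of 3 arrays (log2) for the 16 genes of largest range among granule, mitosis and immediate early genes. WT replicate 1 lies to the left for the granule genes, WT replicate 2 to the left for the mitosis genes and, for most immediate early genes, WT replicate 2 lies to the right and WT replicate 3 to the left.

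Stress and interferon genes differed by smaller steps. All 17 heat shock genes were members, and 13 were lowest on WT replicate 2 against 35% of all genes. A range of at least 2-fold was found in 1 of the 17 (2.56% of all genes). Hspa1a, an inducible chaperone, read -2.03, -3.75 and -2.81, and Hsp90ab1 read 8.01, 7.96 and 8.14. All 27 unfolded protein response genes were members, and 18 were lowest on WT replicate 2 against 35% of all genes. Of the 27, 3 had a range of at least 2-fold (2.56% of all genes), among them Sdf2l1 at 0.53, -0.23 and 1.06. All 30 interferon-stimulated genes were members, 25 were lowest on WT replicate 1 against 36.8% of all genes, and 22 were highest on WT replicate 3 against 40.6%. A range of at least 2-fold was found in 3 of the 30 (2.56% of all genes), and in 0 without WT replicate 1. Cxcl10, a chemokine, read -0.09, 1.10 and 0.62 and Ifit3 read -1.35, -0.49 and -0.30, while Ifih1, an RNA sensor, read 1.98, 2.06 and 2.07 and Ddx58 read 3.38, 3.45 and 3.48.

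Metabolic and ribosomal genes differed by less than 2-fold between the arrays. The array held 24 cholesterol genes, 23 glycolysis and hypoxia genes, 48 oxidative phosphorylation genes and 62 ribosomal protein genes. All were members, and 0 had a range of at least 2-fold, against 2.56% of all genes. The last 3 lists were bright, with median levels of 3.92, 4.42 and 8.51. Large ranges were rare at such levels, with 9 of 1921 and 10 of 1922 genes in the 2 brightest of the 10 signal classes. Cyp51, a sterol demethylase, read -0.28, -0.82 and -1.04, and Pfkm, phosphofructokinase, read 2.79, 2.83 and 2.84. Oxidative phosphorylation genes were highest on WT replicate 3 in 45 of 48 cases, against 40.6% of all genes, with a median deviation of 0.14. Ndufa1 of complex I, for example, read 3.85, 3.97 and 4.26. After quantile normalization the count for oxidative phosphorylation was 38, against 33.1% of all genes, and the median deviation was 0.08. Ribosomal protein genes were highest on WT replicate 3 in 59 of 62 cases (40.6% of all genes) and lowest on WT replicate 1 in 55 (36.8% of all genes), but after quantile normalization these counts were 11 and 24. Rps15 was the widest at 7.15, 7.43 and 7.51, and Rpl5 read 7.0, 7.0 and 7.03.

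The slide was tested across all 6 arrays with limma, with genotype as a term, since only 1 wild-type array lay on the second slide. No gene of the 19212 passed an adjusted p of 0.05 (0% higher and 0% lower on the second slide). With 4 arrays against 2 the fit can miss real differences, so this count does not show that the slides were alike. At an unadjusted p under 0.05 the fit gave 842 genes, 4.38%. The smallest limma adjusted p was 0.516. It was shared by Bmp4, with a difference of -1.09 ± 0.10 (SE), and Cavin2, with -1.25 ± 0.12, both named after their values were seen. For Itgb3 the difference between slides was 0.30 ± 0.31 (limma adjusted p = 0.932).

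Genes that set WT replicate 3 apart included several outside the lists. Kcnip3, a calcium-binding protein, read 1.81, 1.43 and -0.49, and Sox18, an endothelial transcription factor, read -1.96, -2.44 and -4.02. Zbtb16, the PLZF transcription factor, read 0.08, 0.18 and 1.69, with WT replicate 3 highest. The difference between slides over 6 arrays was -1.16 ± 0.41 (SE) for Kcnip3 and 0.75 ± 0.35 for Zbtb16, each with a limma adjusted p of 0.932. On WT replicate 2 alone, Olfr18 at -3.77, -1.74 and -4.23 and Asgr2 at -3.14, -0.97 and -3.18 lay above the other arrays, and both were near the dim edge on those.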

How the data were processed

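The deposited scanner files hold linear intensities. Agilent Feature Extraction (10.7.3.1) read the spots, according to the submitters' processing notes. Its processed signal is an intensity after background correction, per the file headers. The value table that the authors deposited equals this signal divided by a single constant for each array (368, 357 and 327 for WT replicates 1 to 3), which its ratio to the scanner values gave, with no log and no centring. It was used as an alternative. Of 62976 spots per array 59305 were no controls. The 92 to 129 outlier spots per wild-type array were left out (10 probes had no other spot), spots well above background on all 3 arrays were averaged per probe, and log2 values were taken minus the 75th percentile of the array. Accessions of 28026 probes were matched to RefSeq symbols (GRCm38.p6 table), and names changed for 1651. Positions are mm9, as the scanner files give them; exon and UTR positions were not analysed here.

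Levels were described without a test. Only the slide was tested, with limma 3.58.1 in R 4.3.3 (lmFit, eBayes, Benjamini-Hochberg), on 4 against 2 arrays with genotype as a term, after the fit had been tested on simulated data. Other summaries used Python 3.11.15, pandas 2.3.3 and numpy 2.4.6. The members and the 32 gene lists were chosen with earlier results of these data known. The genes named are the markers and gate genes, the 10 of largest range, the 5 farthest on each array in each direction, the 10 steadiest bright genes, the 10 brightest, sex-linked genes, and up to 4 per list (2 widest and 2 steadiest). These rankings ran over the 12624 member genes with a gene symbol. Elane, S100a9, Elk1, Ttc38, Csf3r, Bmp4 and other list members beyond that rule were picked with their values known. Some genes that the rule names are not reported here. Alternatives were quantile normalization, normexp with an offset of 50, the authors' table, a weaker detection call, no detection filter, outlier spots kept, a 1.5-fold range, no genotype term, and leaving out each array.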

Additional observations from a re-analysis of the deposited data

How the results depend on the processing

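The number of genes with a range of at least 2-fold was 491. It was 161 after normexp background correction, 4693 without the detection filter and 2267 at 1.5-fold, and leaving out 1 array gave 213 to 271. The normexp offset of 50 by itself narrows the ranges of dim probes. Leaving out 1 array in turn gave 0 to 15 late neutrophil genes, 1 to 9 primary granule genes, 0 to 8 monocyte genes, 0 to 7 erythroid genes, 0 to 4 immediate early genes, 0 to 2 stem cell surface genes and 0 to 1 mitosis genes with such a range. The granule, monocyte and erythroid minima came without WT replicate 1. Immediate early genes numbered 1 without WT replicate 2 and 0 without WT replicate 3, and stem cell surface genes 1 without WT replicate 1 and 0 without WT replicate 3. Mitosis genes numbered 0 after normexp and 3 without the filter, and replication genes 1 after quantile normalization. Ribosomal protein genes lowest on WT replicate 1 numbered 24, and those highest on WT replicate 3 numbered 11, after quantile normalization. Genes higher on the second slide numbered 2 without the filter. No paired analysis was possible because no genotype comparison was made, and the slide follows the replicate number. Detection of 27027 probes became 34073 with the scanner's weaker call. That only 3 arrays exist limits the precision, and no depth in counts exists for arrays. Dim probes, with a median SD of 0.25 in the dimmest of 10 classes, carry most of the large ranges.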

Other observations

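Imprinted genes, several of which are active in quiescent stem cells, were members in 16 of 21 cases, and 13 of the 16 were lowest on WT replicate 3, against 28.2% of all genes. Meg3, a noncoding RNA expressed from the maternal allele, read 2.30, 2.70 and 1.41 on WT replicates 1, 2 and 3. Dlk1, expressed from the paternal allele of the same cluster, read -0.31, 0.07 and -1.16. Both had a range of at least 2-fold, with WT replicate 3 low. Ppp1r9a read 2.99, 3.0 and 2.91, and Kcnq1ot1 read 2.34, 2.28 and 2.49. Peg3, Mest, Peg10 and Slc38a4 were called on 0 arrays. The slide difference over 6 arrays was -0.50 ± 0.34 (SE) for Meg3 and -0.61 ± 0.34 for Dlk1, each with a limma adjusted p of 0.932.

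Of the sex-linked genes, Xist and Tsix were called on 0 of the 3 arrays. The Y-linked genes Ddx3y, Eif2s3y and Uty were members. Ddx3y, an RNA helicase, read 1.40, 0.54 and 1.5, Eif2s3y read 2.68, 2.83 and 2.47, and Uty read -1.75, -1.57 and -1.67 on its brighter probe. Kdm5d was well above background on WT replicates 1 and 3 only. Ddx3y was lower on WT replicate 2, and Eif2s3y had a range of 0.36 log2 units.

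All 15 reference genes were members and 0 had a range of at least 2-fold (2.56% of all genes). Their median level was 4.45, in the brightest of the 10 signal classes, where 10 of 1922 genes had such a range. Ppia, cyclophilin A, read 8.85, 8.87 and 8.98 and Sdha read 4.47, 4.40 and 4.40. Tfrc, the transferrin receptor, read -0.32, -0.29 and -0.67.

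Some genes far from the other arrays belonged to none of the lists. Myl10 read 2.29, 1.49 and 0.49, Tns4 read -2.46, -3.83 and -3.69, and Vmn1r197 read -2.40, -3.46 and -3.89, each highest on WT replicate 1. Klhl13 read 0.32, -1.18 and -0.12, lowest on WT replicate 2, and Ubxn4 read -3.17, -1.27 and -3.53, highest there. Tgm5 read -1.86, -1.67 and -3.36 and Spaca1 read -1.64, -1.16 and -2.93, lowest on WT replicate 3, where Map3k6 was highest at -1.21, -0.85 and 0.48.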
